A study of Homo sapiens with 36 samples.

Results

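The comparison set PERK KO cells at day 3 of cardiac differentiation against PERK KO cells at day 2. It rests on 6 of the 36 libraries of the study, the 3 labelled PERK KO day 3 and the 3 labelled PERK KO day 2, and was described across all genes: of 58721 genes in the count table, 19772 had enough reads to be tested. PERK, encoded by EIF2AK3, is a kinase in the membrane of the endoplasmic reticulum (ER). When proteins misfold there it phosphorylates the initiation factor eIF2, which slows translation and raises the transcription factor ATF4 and its targets. The cells were H1 human embryonic stem cells, an established line, either wild type or PERK KO. Both genotypes were treated alike: CHIR99021, an inhibitor of GSK3 that switches WNT signalling on, was present from day 0 to day 1, IWP2, an inhibitor of WNT secretion, from day 2 to day 5, and heparin from day 1 to day 7. The days are those of the sample labels, while the study's design text names collection at days 0, 2 and 6. The 4 groups used here were PERK KO day 3, PERK KO day 2, wild type day 3 and wild type day 2, with 3 libraries each. In this protocol the WNT pulse takes stem cells through a state like the primitive streak, the structure of the gastrulating embryo from which mesoderm and endoderm arise, and its removal lets mesoderm turn to the heart lineage.

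The sources used here do not give how PERK was edited, from how many clones the PERK KO libraries came, whether 1 culture was followed over the days, or whether replicates were separate cultures. The p-values therefore measure only the spread between replicate samples, pooled over all 12 groups of the study, and that spread may be technical. The bulk libraries also cannot tell fewer cells that express a gene from less RNA per cell. Levels are given as CPM, the usual scaling of read counts to a common library size, differences as log2 fold changes of day 3 over day 2 with their standard error (SE), and a gene was called at an adjusted p under 0.05 in edgeR's quasi-likelihood test with Benjamini-Hochberg adjustment. Levels of different genes are not compared, because CPM does not correct for transcript length.

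The day 3 libraries held 20.88, 22.59 and 17.97 M counts (M for mega) and the day 2 libraries 17.94, 18.49 and 21.33 M. Replicates correlated at 0.9943 to 0.9965 in PERK KO day 3 and 0.9958 to 0.9966 in PERK KO day 2 (Pearson, log2(CPM + 1)), against 0.9684 to 0.9898 in wild type day 3 and 0.9716 to 0.9962 in wild type day 2. Wild type day 2 replicate 3 differed from replicates 1 and 2 (chi-square over its degrees of freedom, 74.5 and 69.7) by more than those did from each other (4.05). For the 3 pairs of wild type day 3 the same measure was 24.2, 31.6 and 87.2. EIF2AK3 (GRCh38 chr2:88556741-88627576, minus strand) read 18.2, 16.9 and 16.8 CPM in the day 3 libraries, against 22.5, 18.6 and 20.9 CPM at day 2 (log2 fold change -0.26 ± 0.20, adjusted p = 0.368). It was at 22.0 ± 5.55 CPM in wild type day 3 and 16 ± 4.43 CPM in wild type day 2 (SD, n = 3 each), so its transcript remained detectable in the libraries labelled PERK KO, and a transcript count does not check an edit whose kind is not given. Fitted on the 6 libraries alone, EIF2AK3 was called lower at day 3 (log2 fold change -0.29, adjusted p = 0.0241).

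GC content moved with the contrast. Over the 15925 genes with a mean of at least 1 CPM, Spearman's rho between GC content and the PERK KO change was 0.49, and between GC content and the wild-type change -0.10. The median PERK KO log2 fold change was -0.59 among the 10% of genes with the lowest GC content (27.8% to 38.7%) and 0.34 among the 10% with the highest (61.8% to 76.8%), against 0.18 and -0.04 in wild type. Median deviations of the low-GC group were -0.01, -0.24 and -0.40 in the day 3 libraries and 0.45, 0.26 and 0.34 at day 2, so that they did not overlap. In wild type they were 0.31, -0.27 and -0.97 at day 3 and -0.07, -0.04 and -1.39 at day 2, the last in replicate 3, so the wild-type medians rest on libraries that differ among themselves and overlap between the days. Whether this trend is part of the cells' change or of the libraries was not tested. Every list below was therefore also counted with an offset that removes each library's trend over GC content, added after the data were seen.

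A small set of genes was also apart in the PERK KO libraries of days 3 and 5 together. By a rule chosen after the values were seen, a gap of at least 4-fold in CPM + 0.1 between all 6 libraries of days 3 and 5 and all 12 PERK KO libraries of days 0, 1, 2 and 10, 11 genes lay above (CSAG1, FAM20A, HOXB13, MAGEA12, MMP24, OLIG3, PCDH8, SOX1, TBX1, TRPC6 and ZNF560) and 7 below (AC016205.1, DUSP6, LPAR6, NDRG1, ST3GAL1, UBBP4 and ZFP41). ZFP41, a zinc finger gene, had a mean of 3.55, 7.20, 7.37, 0, 0.036 and 8.08 CPM at days 0, 1, 2, 3, 5 and 10. MAGEA12, a cancer-testis antigen gene of the X chromosome, had 0, 0.029, 0.0179, 4.49, 5.51 and 0.0922 CPM at the same days and no count in any wild-type library. The sources do not say which culture or clone gave each day, so a difference between cultures and a difference between days cannot be told apart in any result below.

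**Figure D1:**
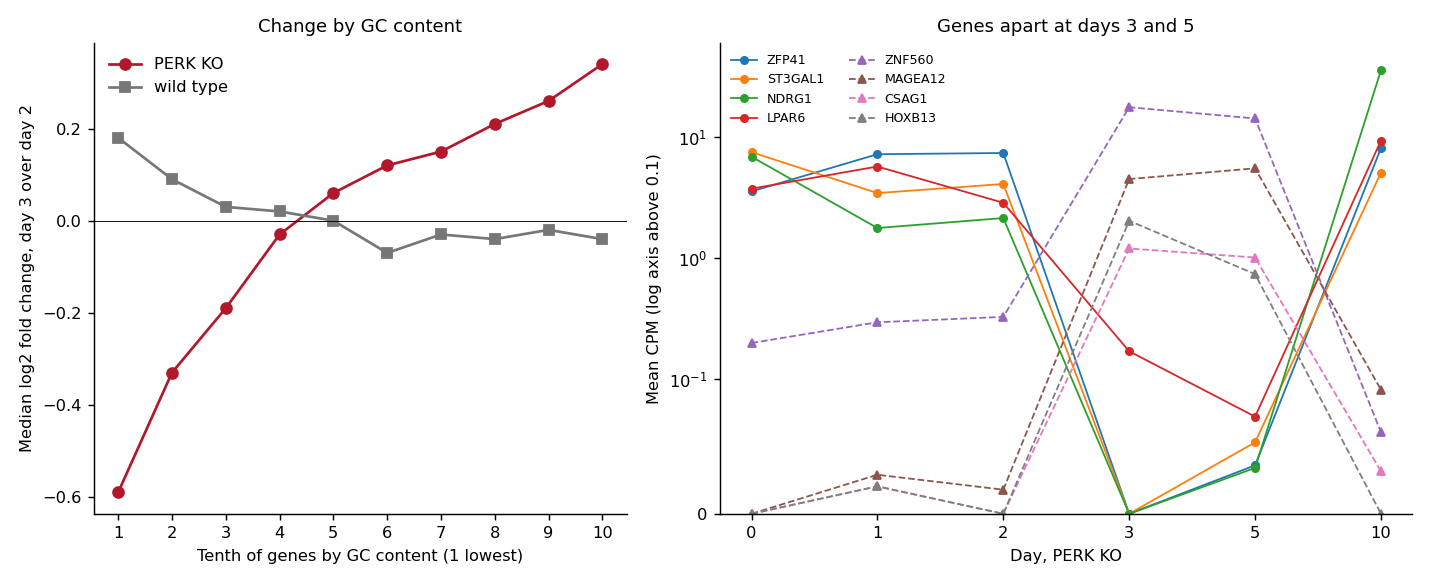
Left, the median log2 fold change of day 3 over day 2 in 10 equal groups of genes ordered by GC content, in PERK KO and in wild type. Right, the mean CPM of 8 genes over days 0 to 10 in PERK KO (log axis above 0.1). The PERK KO medians run from -0.59 to 0.34 while the wild-type medians run from 0.18 to -0.04, and ZFP41, ST3GAL1 and NDRG1 are at 0 at day 3 only.

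Between the 2 PERK KO days 4883 of 19772 genes were called, which is 24.7%: 2674 were higher at day 3 (13.5%) and 2209 were lower (11.2%). A change of at least 2-fold was called for 2323 genes, 1197 higher and 1126 lower, and 7112 genes had an unadjusted p under 0.05. The median log2 fold change of all genes was 0.02. The 3 day 3 and the 3 day 2 libraries did not overlap in 11301 genes, or 57.2% of those tested, so a lack of overlap in a gene named below was also seen in most other genes. With the GC content offset 5056 genes were called, 3109 higher and 1947 lower; 3882 of the 4883 calls were kept, 1001 were lost and 0 turned round. The count of lower genes was 1458 without PERK KO day 3 replicate 2 and 1347 without PERK KO day 3 replicate 3, and with the 6 libraries alone 9177 genes were called (4474 higher, 4703 lower).

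The 12 highest folds were taken among called protein-coding genes with at least 10 CPM in the higher group and no overlap between the days, leaving out families that share reads, such as the metallothioneins, which are described below. They included 5 transcription factors of the neural plate or its borders (ZIC1, SIX3, SOX21, OLIG3 and IRX1) and UTF1, a chromatin factor of pluripotent cells. ZIC1, at the neural plate border, had 22.9, 27.5 and 25.1 CPM at day 3, against 0.165, 0.322 and 0.282 CPM at day 2 (log2 fold change 6.57 ± 0.39, adjusted p = 1.63e-13). IRX1, an Iroquois homeobox gene, had 16.1, 14.0 and 15.9 CPM at day 3, against 0.713, 0.429 and 0.235 CPM at day 2 (5.07 ± 0.43). In both genes each day 3 library was above each day 2 library by more than an order of magnitude. The other members of the 12 were ZNF560 (5.72), TRPC6, a cation channel (4.33), GRM3, a metabotropic glutamate receptor (3.58), HRK, a BH3-only promoter of apoptosis (3.57), C2CD4C (3.43) and BAHCC1 (3.38). Among the 12 with the deepest fall were secreted or signalling proteins of the streak, DKK4, CER1, NODAL and FGF17, and its transcription factors MIXL1 and TBXT. The rest were the neurokinin receptor TACR1 (-6.02), the neuropeptide NTS (-5.06), the adhesion protein FLRT3 (-3.92), the hyaluronan synthase HAS2 (-3.91), the ERK phosphatase DUSP6 (-3.74) and the calcitonin receptor CALCR (-3.68). HAS2 and NODAL overlap an annotated gene on the opposite strand, as do IRX1, GRM3, BAHCC1 and DUSP6, and whether the counting used strand is not given.

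Of the 22 measured genes of the primitive streak and mesendoderm, 18 fell, 0 rose and 4 were not called, with a median log2 fold change of -2.68. The T-box factor TBXT (brachyury), which marks nascent mesoderm, had 1.22, 0.532 and 1.12 CPM at day 3, against 20.6, 26.9 and 23.7 CPM at day 2 (log2 fold change -4.64 ± 0.29, adjusted p = 3.91e-12). The homeobox factor MIXL1 had 1.93, 2.88 and 1.63 CPM at day 3, against 66.1, 88.9 and 80.1 CPM at day 2 (-5.17 ± 0.20, adjusted p = 1.17e-17). EOMES, the T-box factor upstream of mesoderm and endoderm, had 8.57, 7.19 and 6.78 CPM at day 3, against 50.8, 75.8 and 65.2 CPM at day 2 (-3.09 ± 0.18). The 3 genes were low in each day 3 library. Members of the anterior streak and its endoderm fell as well: the organizer gene GSC by 3.36, the pioneer factor FOXA2 by 2.80 and LHX1 by 2.70 on the log2 scale. So did the posterior genes CDX1, CDX2 and CDX4, which were at most 1.82 CPM in any of the 6 libraries. The call of CDX2 was lost with an offset for transcript length (adjusted p = 0.357). It was also lost without PERK KO day 2 replicate 2, day 2 replicate 3 or day 3 replicate 3 (adjusted p up to 0.0699). That of CDX4 was lost without day 2 replicate 2 or day 3 replicate 2 (adjusted p up to 0.0623). MESP1, the factor that starts the cardiac mesoderm program, was at 1.22, 1.77 and 0.897 CPM at day 3 and 0.823, 0.697 and 0.986 CPM at day 2, and was not called (0.64 ± 0.45, adjusted p = 0.322).

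In wild type the same list had a median log2 fold change of -2.52 between these days. MIXL1 was at 78.4 ± 9.68 CPM in wild type day 3 and 549 ± 57.2 CPM in wild type day 2, and MESP1 at 61.9 and 163 CPM. The change differed between the genotypes in 16 of the 22 genes, 9 with a more positive and 7 with a more negative change in PERK KO. NODAL showed opposite directions: it fell in PERK KO, whereas in wild type it was at 37.1 ± 21.0 CPM at day 3 and 13.4 ± 2.43 CPM at day 2 (difference of the log2 changes -5.00 ± 0.44, adjusted p = 2.86e-10). With the GC content offset the counts of the list were again 18 lower and 0 higher, and between 16 and 18 members fell when any 1 of the 6 libraries was left out.

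**Figure D2:**
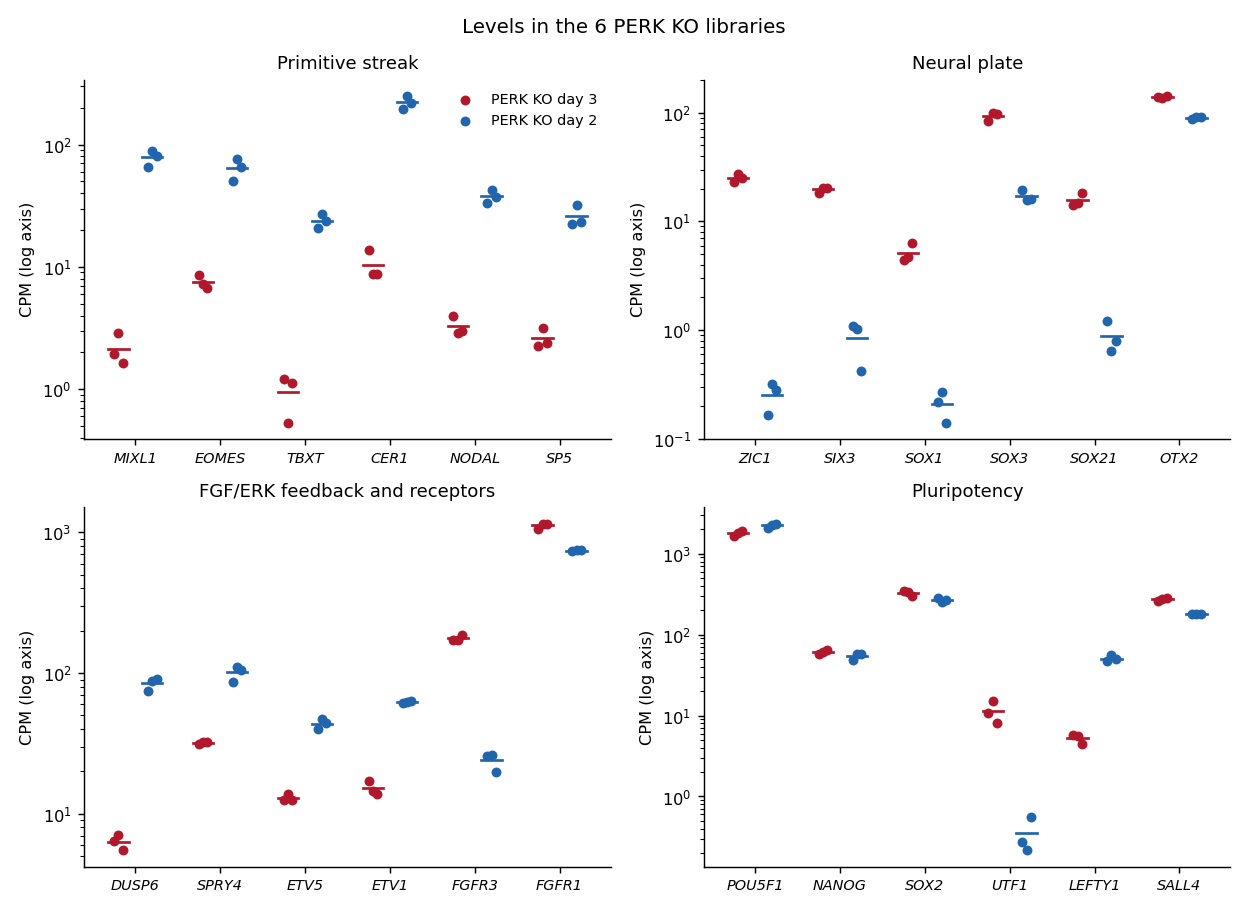
CPM (log axis) of 24 genes in each of the 3 PERK KO day 3 libraries (left of each pair) and the 3 PERK KO day 2 libraries (right), with horizontal lines at the group means. The streak genes MIXL1, EOMES, TBXT, CER1, NODAL and SP5 are lower at day 3 without overlap, and ZIC1, SIX3, SOX1, SOX3 and SOX21 are higher without overlap. By smaller steps POU5F1 is lower and SOX2 higher without overlap, though neither was called. NANOG, also not called, overlaps between the days.

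WNT genes moved in both directions. Of 18 measured feedback and target genes 5 rose and 6 fell, and of 29 ligands, receptors and secreted inhibitors 10 rose and 5 fell. Of the feedback and target genes 3 rose with the GC content offset, and 3 without PERK KO day 2 replicate 1 or 3 or day 3 replicate 2 or 3. The secreted WNT antagonist DKK4 was at 0.141, 0.0887 and 0.112 CPM at day 3, against 33.1, 36.9 and 29.8 CPM at day 2, from 7 counts in all at day 3 and 1926 at day 2 (log2 fold change -8.11 ± 0.38, adjusted p = 2.57e-12). DKK1, another such antagonist, fell by 3.79 and SP5, a direct target that represses further WNT targets, by 3.31. The ligands of the streak also fell: WNT3 by 2.30, WNT3A by 2.04 and WNT8A by 2.54. LEF1, the nuclear partner of beta-catenin, had 3.44, 3.37 and 3.98 CPM at day 3, against 8.45, 8.90 and 8.97 CPM at day 2 (-1.29 ± 0.22, adjusted p = 4.45e-05). The transport protein that WNT ligands need for secretion, WLS, had 8.33, 8.56 and 7.68 CPM at day 3, against 45.1, 59.4 and 59.9 CPM at day 2 (-2.74 ± 0.29, adjusted p = 1.59e-08), while in wild type it was at 369 CPM at day 3 and 111 CPM at day 2 (difference -4.48, adjusted p = 3.58e-10).

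Other WNT genes were higher at day 3. CCND1, a cyclin that many pathways raise, had 356, 372 and 373 CPM at day 3, against 158, 176 and 166 CPM at day 2 (log2 fold change 1.14 ± 0.12, adjusted p = 8.06e-09). The frizzled receptors FZD5 and FZD8 rose by 1.46 and 1.97, and the secreted inhibitor SFRP1, an abundant transcript, had 1100, 1130 and 1200 CPM at day 3, against 583, 553 and 548 CPM at day 2 (1.03 ± 0.14). SFRP2, a close relative, moved the other way, with 136, 158 and 167 CPM at day 3, against 315, 357 and 335 CPM at day 2 (-1.13 ± 0.17, adjusted p = 4.75e-06). AXIN2, the most used readout of the pathway, had 44.1, 47.6 and 51.4 CPM at day 3, against 35.2, 39.1 and 36.1 CPM at day 2 (0.37 ± 0.13, adjusted p = 0.0329). The libraries of AXIN2 did not overlap, but its call was lost with the GC content offset (adjusted p = 0.0548) and with an offset for transcript length (adjusted p = 0.176). It was also lost without PERK KO day 2 replicate 1, day 2 replicate 3, day 3 replicate 2 or day 3 replicate 3 (adjusted p up to 0.143). Its wild-type level was lower at day 3 (26.4 CPM at day 3 and 58.3 CPM at day 2; difference 1.52, adjusted p = 1.4e-07).

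NODAL, BMP and other TGF-beta family signals pattern the streak, NODAL through SMAD2 and SMAD3 and BMP through SMAD1 and SMAD5. NODAL itself had 3.95, 2.88 and 2.97 CPM at day 3, against 33.5, 42.9 and 37.1 CPM at day 2 (log2 fold change -3.53 ± 0.33, adjusted p = 1.12e-09). Its feedback inhibitors fell too: LEFTY1 had 5.70, 5.63 and 4.48 CPM at day 3, against 46.8, 55.6 and 49.7 CPM at day 2 (-3.26 ± 0.30), LEFTY2 fell by 1.55 and CER1 by 4.40. GDF3, a ligand that acts with NODAL, fell by 2.26. Of 17 measured BMP, NODAL and TGF-beta targets, however, 6 rose and 2 fell. ID4 had 34.2, 30.4 and 26.5 CPM at day 3, against 4.22, 3.65 and 3.57 CPM at day 2 (2.99 ± 0.18, adjusted p = 2.04e-13), and ID1 had 421, 437 and 432 CPM, against 174, 205 and 168 CPM (1.24 ± 0.25, adjusted p = 0.000366). These 2 are inhibitors of basic helix-loop-helix factors and common BMP targets; ID3, of the same family, had 42.4, 40.7 and 43.1 CPM at day 3, against 85.7, 104 and 90.1 CPM at day 2 (-1.15 ± 0.27, adjusted p = 0.00192). The inhibitory SMADs SMAD6 and SMAD7 rose by 0.90 and 1.16. Of 27 measured ligands, receptors and antagonists of the family 6 rose and 2 fell, and with the GC content offset 11 rose and 2 fell; 0 fell without PERK KO day 2 replicate 2 or 3 or day 3 replicate 3.

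Feedback genes of FGF and ERK signalling fell together: of 16 measured, 10 fell and 0 rose (median log2 fold change -1.04), and the same number fell in each fit that left out 1 library. DUSP6, the phosphatase that inactivates ERK, had 6.45, 7.05 and 5.49 CPM at day 3, against 74.5, 88.3 and 91.3 CPM at day 2 (-3.74 ± 0.17, adjusted p = 2.75e-16). The ETS factors that report ERK activity, ETV1, ETV4 and ETV5, fell by 2.04, 1.02 and 1.75, and the feedback inhibitors SPRY4 and IL17RD by 1.66 and 1.99. The ligands FGF4 and FGF17 fell by 2.66 and 3.55. Of 15 measured FGF ligands and receptors 4 rose and 2 fell (median -0.08), and with the GC content offset 3 rose and 3 fell. FGFR3 had 172, 172 and 187 CPM at day 3, against 25.9, 26.3 and 19.7 CPM at day 2 (2.88 ± 0.16, adjusted p = 2.62e-14), FGFR1 rose by 0.60 and FGFRL1, a receptor with no kinase domain, by 1.59, while FGFR2 and FGFR4 were not called (0.24 and -0.05). FGFR3 was also higher at day 3 in wild type (206 ± 28.9 CPM at day 3 and 58.7 ± 11.2 CPM at day 2), by less than in PERK KO (difference 1.08 ± 0.21, adjusted p = 0.000185). DUSP6 was at 64.9 ± 3.80 CPM in wild type day 3 and 164 ± 15.8 CPM in wild type day 2 (difference -2.40 ± 0.22, adjusted p = 5.46e-10).

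**Figure D3:**
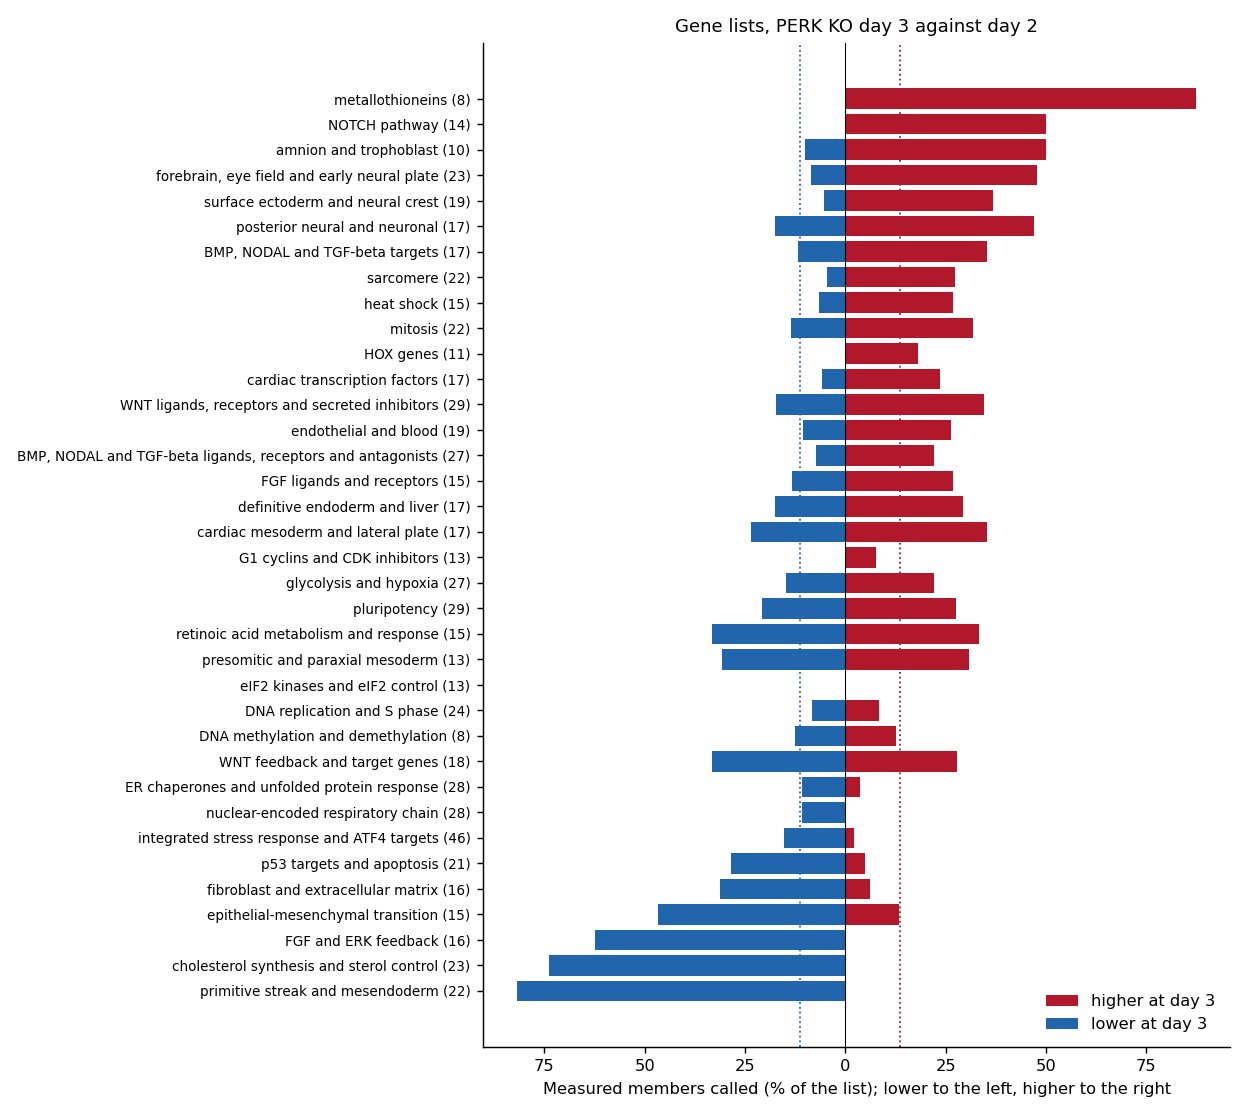
For each of the 36 gene lists (measured members in parentheses), bars show the percentage of members called higher at day 3 (right) and lower (left) in PERK KO; dotted lines mark the percentages over all genes tested, 13.5 higher and 11.2 lower. Metallothioneins, NOTCH, amnion and forebrain genes have the highest percentages called higher, and streak, sterol and FGF feedback genes the highest called lower.

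Genes of cardiac and lateral plate mesoderm split. Of 17 measured members 6 rose and 4 fell, with a median log2 fold change of -0.41 in PERK KO and 1.31 in wild type. KDR, the VEGF receptor of early cardiovascular mesoderm, had 56.7, 53 and 49.4 CPM at day 3, against 335, 394 and 409 CPM at day 2 (-2.84 ± 0.25, adjusted p = 5.74e-10). The receptor PDGFRA, used with KDR to sort cardiac mesoderm, had 3.81, 4.92 and 4.60 CPM at day 3, against 15.1, 17.6 and 15.2 CPM at day 2 (-1.84 ± 0.28). In wild type PDGFRA was at 595 CPM at day 3 and 137 CPM at day 2 (difference -3.97, adjusted p = 1.7e-09). GATA6 fell by 2.43, while GATA4 was at 3.06, 2.04 and 2.13 CPM at day 3 and 2.14, 2.79 and 2.16 CPM at day 2 and was not called (0.03 ± 0.31, adjusted p = 0.963). GATA5 had 147 counts at day 3 and 1 at day 2, a ratio of 138 with a 95% counting interval of 24.4 to 5500. The lateral mesoderm factor HAND1 rose by 3.54 ± 0.91 but reached only 1.37, 0.798 and 1.07 CPM at day 3, against 0.0548, 0.161 and 0.047 CPM at day 2; its wild-type level was 657 CPM at day 3 and 42.3 CPM at day 2.

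NKX2-5, a homeobox factor of the forming heart, had at most 0.107 CPM in any of the 6 libraries and was not called (adjusted p = 0.767), against 2.95 CPM in wild type day 3 and 0.327 CPM in wild type day 2. TBX5 had 34 counts over the day 3 libraries and 0 at day 2, at least 10.7-fold higher against a floor of 3 counts over the group. Of 17 measured members of this list 4 rose and 1 fell, and the wild-type median was 3.15. Contractile genes rose in 6 and fell in 1 of 22 (median 0.38 in PERK KO and 3.12 in wild type). TPM1, a tropomyosin that most cells make, had 799, 853 and 847 CPM at day 3, against 306, 272 and 274 CPM at day 2 (1.55 ± 0.14, adjusted p = 6.98e-10). Cardiac alpha-actin, ACTC1, had 35.2, 43.6 and 43.5 CPM at day 3, against 9.87, 7.78 and 9.02 CPM at day 2 (2.20 ± 0.28, adjusted p = 4.72e-07). Cardiac troponin T, TNNT2, had 2.17, 3.06 and 3.81 CPM at day 3, against 0.548, 0.912 and 0.845 CPM at day 2 (1.95 ± 0.48). DES, desmin, fell by 1.98. The change was more negative in PERK KO than in wild type for 11 of the 22 contractile genes and more positive for 1: ACTC1 was at 261 CPM in wild type day 3 and 10.7 CPM in wild type day 2 (difference -2.42, adjusted p = 1.38e-05), whereas the difference for TPM1 was not called (-0.30, adjusted p = 0.256).

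Paraxial mesoderm genes rose in 4 and fell in 4 of 13 measured. TBX6, the T-box factor of presomitic mesoderm, had 5.55, 4.83 and 7.01 CPM at day 3, against 10.4, 15.1 and 10.1 CPM at day 2 (log2 fold change -1.04 ± 0.23, adjusted p = 0.00137). The NOTCH ligand DLL1 had 26.5, 29 and 34.7 CPM at day 3, against 6.47, 7.78 and 8.78 CPM at day 2 (1.97 ± 0.18, adjusted p = 5.17e-10), while its wild-type level was 36.4 CPM at day 3 and 311 CPM at day 2 (difference 5.06, adjusted p = 1.57e-15). Of 14 other NOTCH genes 7 rose and 0 fell. HES4, a NOTCH target that rodents lack, had 6.78, 7.76 and 8.41 CPM at day 3, against 0.274, 0.483 and 0.282 CPM at day 2 (4.45 ± 0.50, adjusted p = 4.17e-08), and HES3 had 44.4, 49.5 and 54.3 CPM, against 12.2, 9.23 and 10.1 CPM (2.23 ± 0.29). The receptor NOTCH3 rose by 0.92 and the ligand JAG2 by 1.16. With the GC content offset 5 of these NOTCH genes rose and 1 fell; NRARP (adjusted p = 0.139) and RFNG (adjusted p = 0.112) lost their calls.

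Genes of the forebrain, eye field and early neural plate rose in 11 and fell in 2 of 23 measured (1 fell without PERK KO day 2 replicate 1 or day 3 replicate 3), with a median log2 fold change of 1.88, or 1.41 when a group without counts was set to its bound. The median in wild type was 0.06, and the change was more positive in PERK KO for 10 of the 23 and more negative for 2. SIX3, a homeobox factor of the forebrain and eye field, had 18.4, 20.5 and 20.5 CPM at day 3, against 1.10, 1.02 and 0.423 CPM at day 2 (4.56 ± 0.29, adjusted p = 6.35e-13). It was at 111 CPM at day 5 and 455 CPM at day 10 in PERK KO, and at most 0.225 CPM on average at any wild-type day. SOX1, the earliest factor held to be specific to neuroectoderm, had 4.42, 4.70 and 6.33 CPM at day 3, against 0.219, 0.268 and 0.141 CPM at day 2 (4.59 ± 0.37). SOX3 had 84.0, 98.2 and 98.1 CPM at day 3, against 19.3, 15.6 and 16.1 CPM at day 2 (2.46 ± 0.21, adjusted p = 1.62e-10), and SOX21 rose by 4.14. LHX5 and FEZF1, which shape the forebrain, rose by 6.28 and 3.37, from 5 counts at day 2 in the case of LHX5. OTX2, a head organizer and forebrain factor already abundant in stem cells, had 138, 136 and 142 CPM at day 3, against 86.8, 90.3 and 90.3 CPM at day 2 (0.64 ± 0.10). PAX6, the later neural factor, stayed low, with 0.329, 0.310 and 0.448 CPM at day 3 and 0.165, 0.0536 and 0 CPM at day 2; its call (2.27 ± 0.79, adjusted p = 0.0366) was lost without any 1 of 5 of the 6 libraries, all but PERK KO day 2 replicate 1 (adjusted p up to 0.167).

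Other ectoderm lists held more higher than lower calls. Of 17 posterior neural and neuronal genes 8 rose and 3 fell. The tubulin TUBB3 had 131, 145 and 156 CPM at day 3, against 36.6, 38.1 and 34.4 CPM at day 2 (log2 fold change 1.98 ± 0.24, adjusted p = 1.6e-07), and PAX5, a factor of the midbrain boundary and of B cells, rose by 5.11 to 5.18, 6.08 and 5.61 CPM. OLIG3, a dorsal hindbrain and spinal cord factor, had 11.3, 16.2 and 15.4 CPM at day 3, against 1.26, 0.697 and 1.03 CPM at day 2 (3.83 ± 0.36). CDH2, the cadherin of neural plate and mesoderm, had 53.9, 52.1 and 46.5 CPM at day 3, against 169, 201 and 199 CPM at day 2 (-1.90 ± 0.16, adjusted p = 1.97e-10). Of 19 surface ectoderm and neural crest genes 7 rose and 1 fell, mostly at low levels: TFAP2A had 0.800, 1.06 and 0.673 CPM at day 3, against 0, 0 and 0.047 CPM at day 2. The summed level of this list was lower at day 3, at 857, 841 and 889 CPM, against 931, 1010 and 1030 CPM at day 2. Among 10 amnion and trophoblast genes 5 rose and 1 fell, KRT7 to 16.2, 16.6 and 13.7 CPM at day 3, against 2.41, 3.06 and 2.54 CPM at day 2 (2.54 ± 0.32, adjusted p = 3.46e-07). Summed over the amnion and trophoblast list, the level was 160, 161 and 156 CPM at day 3, against 169, 167 and 175 CPM at day 2. Of the 11 measured genes of the HOX list, which does not hold HOXB13, HOXB2 and HOXB3 were called, both higher, and they stayed at or below 1.23 CPM; the call of HOXB3 was lost without PERK KO day 2 replicate 1 (adjusted p = 0.054).

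**Figure D4:**
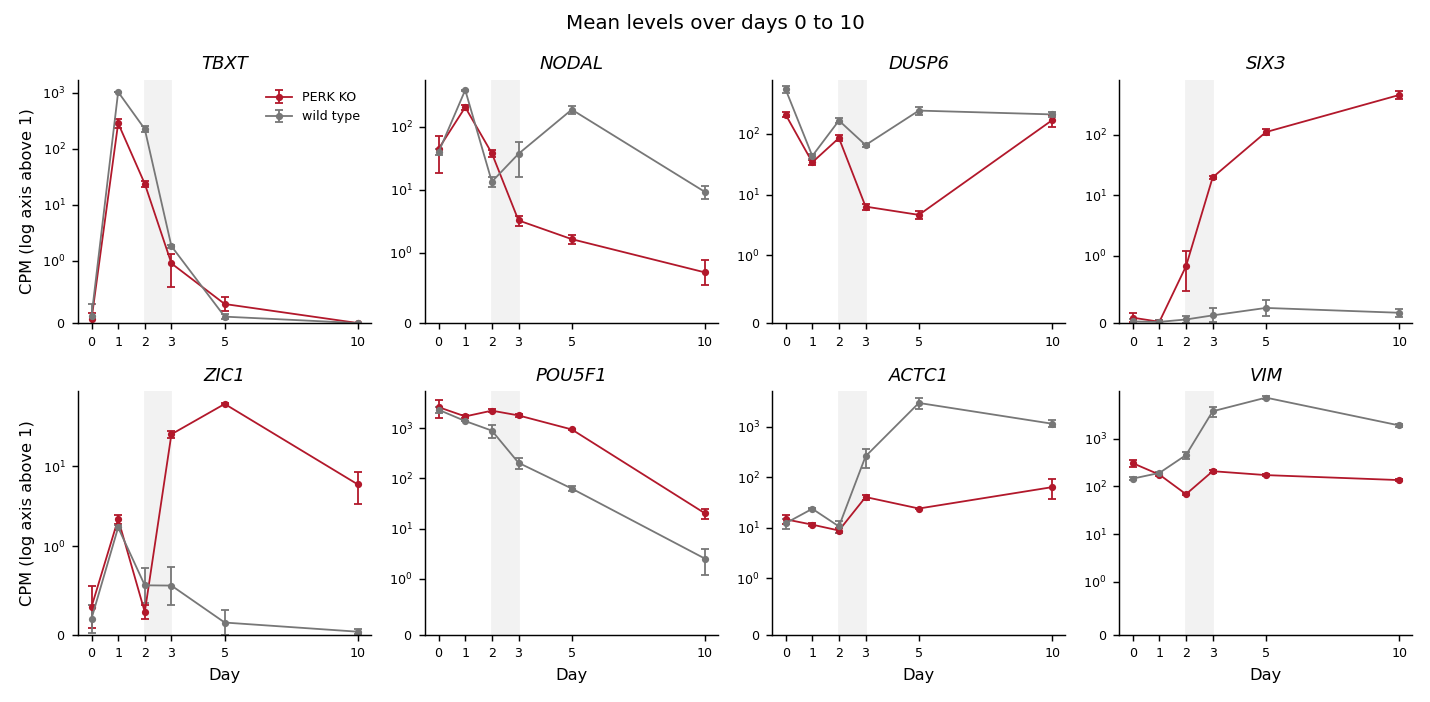
Mean CPM (log axis above 1) with SD error bars (n = 3) of 8 genes at days 0, 1, 2, 3, 5 and 10, in PERK KO and wild type; the grey band marks the interval from day 2 to day 3. TBXT, NODAL and DUSP6 drop within the band in PERK KO, ZIC1 and SIX3 climb, and ACTC1 and VIM climb in both genotypes, further in wild type.

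The core pluripotency factors POU5F1, NANOG and SOX2 were not called. POU5F1 had 1680, 1810 and 1910 CPM at day 3, against 2090, 2280 and 2350 CPM at day 2 (log2 fold change -0.31 ± 0.23, adjusted p = 0.35), NANOG had 56.9, 61.9 and 64.2 CPM, against 48.4, 57.4 and 56.9 CPM (0.17 ± 0.19, adjusted p = 0.555), and SOX2 had 343, 336 and 305 CPM, against 286, 255 and 266 CPM (0.29 ± 0.20, adjusted p = 0.327). SOX2 did not overlap between the days, and in the 6 libraries alone it was called higher (0.25, adjusted p = 0.00888). The POU5F1 libraries did not overlap, and with the 6 libraries alone it was called lower (-0.35, adjusted p = 0.000336). In wild type POU5F1 was at 205 CPM at day 3 and 896 CPM at day 2, and NANOG at 1.77 and 6.87 CPM; both differences between the genotypes were called (1.82 and 2.14). Around this core 8 of 29 genes rose and 6 fell. UTF1 had 10.9, 15.0 and 8.07 CPM at day 3, against 0.274, 0.215 and 0.564 CPM at day 2 (4.96 ± 0.42, adjusted p = 2.11e-10), and was at 7.09 CPM in PERK KO at day 0. KLF4, a factor used in reprogramming, had 7.53, 9.58 and 11.9 CPM at day 3, against 0.932, 1.39 and 0.704 CPM at day 2 (3.26 ± 0.29), and PRDM14, a repressor of lineage genes, had 42.9, 45.9 and 45.4 CPM, against 13.0, 14.4 and 15.1 CPM (1.66 ± 0.22). DNMT3B, the de novo DNA methyltransferase of this state, rose by 0.74 and SALL4 by 0.61. The falling members were the NODAL-linked LEFTY1, LEFTY2 and GDF3, with L1TD1, ESRRB and EPCAM. Of these, L1TD1 (0.0557) and ESRRB (0.0587) lost their calls at the given adjusted p without PERK KO day 3 replicate 3 and PERK KO day 2 replicate 3, and EPCAM lost its call without any 1 of the 6 libraries (adjusted p up to 0.153). An offset for transcript length also removed the calls of ESRRB (adjusted p = 0.0907) and EPCAM (adjusted p = 0.0646). The change was more positive in PERK KO than in wild type for 17 of the 29 members and more negative for 2.

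Metallothioneins, small cysteine-rich proteins that bind zinc and copper, had the highest median of the 36 lists. Their genes are switched on through metal response elements by MTF1, a factor that senses zinc, and 7 of them lie within a cluster on chromosome 16. The 3 windows of 250 bases before the start of metallothionein genes that are shown here carry several matches of the element each (RefSeq, build GRCh38.p14, plus strand). Capitals mark matches of TGCACNC or TGCGCNC on either strand, which may overlap.
MT2A, chr16:56608334-56608583: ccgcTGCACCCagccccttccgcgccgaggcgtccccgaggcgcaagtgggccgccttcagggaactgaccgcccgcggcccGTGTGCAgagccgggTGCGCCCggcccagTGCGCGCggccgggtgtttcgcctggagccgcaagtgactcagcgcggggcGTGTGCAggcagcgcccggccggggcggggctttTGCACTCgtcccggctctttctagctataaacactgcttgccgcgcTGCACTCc
MT1X, chr16:56682220-56682469: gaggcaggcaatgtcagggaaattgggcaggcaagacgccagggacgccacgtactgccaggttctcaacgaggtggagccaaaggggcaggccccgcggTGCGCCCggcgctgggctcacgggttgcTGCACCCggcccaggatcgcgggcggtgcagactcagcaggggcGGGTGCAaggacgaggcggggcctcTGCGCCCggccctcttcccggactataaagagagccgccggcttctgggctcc
MT1H, chr16:56669564-56669813: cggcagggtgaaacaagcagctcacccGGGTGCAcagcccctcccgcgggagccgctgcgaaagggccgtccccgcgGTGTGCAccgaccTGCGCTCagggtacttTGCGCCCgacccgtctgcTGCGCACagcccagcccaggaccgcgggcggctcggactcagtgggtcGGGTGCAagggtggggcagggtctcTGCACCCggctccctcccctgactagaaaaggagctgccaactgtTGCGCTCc
MT2A held 7 matches, MT1X 4 and MT1H 8, while MTF1 held 0; among 35116 promoter windows of all genes, 24.8% held at least 1 match and 6.48% at least 2. Windows were found for 4 of the 8 list genes. A match is a description of the letters and no measured site.

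All 7 metallothionein genes rose and MTF1 was not called (log2 fold change 0.12, adjusted p = 0.699), with a list median of 4.32 in PERK KO and -1.18 in wild type. MT2A, the most widely used isoform, had 16.2, 15.7 and 22.1 CPM at day 3, against 1.26, 0.858 and 0.611 CPM at day 2 (4.31 ± 0.39, adjusted p = 6.41e-10). MT1E had 20.1, 19.8 and 19.6 CPM at day 3, against 0.439, 0.322 and 0.423 CPM at day 2 (5.62 ± 0.39, adjusted p = 3.91e-12). MT1X had 16.1, 14.6 and 14.9 CPM at day 3, against 5.43, 4.56 and 6.01 CPM at day 2 (1.51 ± 0.27). The summed level of the list, MTF1 included, was 98.5, 91.1 and 98.8 CPM at day 3, against 27.5, 24.6 and 26.8 CPM at day 2. MT1G had a mean of 1.27, 0.125, 0.289, 11.3, 1.66 and 0.0431 CPM at PERK KO days 0, 1, 2, 3, 5 and 10. For 6 of the 8 genes the change was more positive in PERK KO than in wild type, where MT2A was at 0.398 CPM at day 3 and 1.02 CPM at day 2 (difference 5.69, adjusted p = 2.91e-08). The near-identical copies share reads, so the split of counts among them is uncertain. The counts of the list were the same with the GC content offset and without any 1 library.

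Sterol genes fell. Enzymes of cholesterol synthesis are switched on by the SREBP factors when sterols are scarce. Of 23 measured genes 17 fell, 0 rose and 6 were not called (median log2 fold change -0.88). HMGCS1, which makes the HMG-CoA used by the pathway, had 62.5, 57.4 and 48.0 CPM at day 3, against 184, 181 and 178 CPM at day 2 (-1.69 ± 0.21, adjusted p = 2.97e-07). INSIG1, the sterol sensor partner that holds SREBP back, had 14.6, 17.4 and 17.6 CPM at day 3, against 52.8, 57.4 and 55.4 CPM at day 2 (-1.74 ± 0.18). IDI1 fell by 1.73 and SQLE, which oxidises squalene, by 0.87. SREBF2, the gene of the main SREBP of the pathway, fell by 0.55 ± 0.14, and SREBF1 was not called (-0.27, adjusted p = 0.162), although it was called lower with the GC content offset (-0.51, adjusted p = 0.000132) and in the 6 libraries alone (-0.31, adjusted p = 0.00412). The wild-type median was -0.43, and the change was more negative in PERK KO for 7 members and more positive for 0. It was more negative for 11 with the GC content offset, without wild type day 2 replicate 3 or without wild type day 3 replicate 1. With the GC content offset 19 fell and 0 rose, although MSMO1 (adjusted p = 0.0787) and HSD17B7 (adjusted p = 0.842) were no longer called. A sterol element spelled TCACNCCAC was found in the window of SREBF2, 1 of the 22 windows of the list, and in 0.883% of all windows.

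Calls among genes near PERK in the stress response stand beside 13.5% higher and 11.2% lower over all genes tested. Of 46 targets of the integrated stress response and of ATF4, 7 fell (15.2%) and 1 rose (2.17%), with a median log2 fold change of -0.13. With the GC content offset 10 fell, against 1947 of all 19772 genes. Only 4 fell without PERK KO day 2 replicate 3 or day 3 replicate 1 or 2. Of 13 eIF2 kinases, subunits and regulators 0 were called in either direction in edgeR's test, and 1 rose with the GC content offset. At an adjusted p under 0.05 in the 6 libraries alone 3 rose and 5 fell. That fit called 4474 genes higher and 4703 lower of 16643 tested. In DESeq2 1 of the 13 fell. ATF4 had 238, 255 and 265 CPM at day 3, against 311, 321 and 332 CPM at day 2 (-0.35 ± 0.18, adjusted p = 0.164). Its libraries did not overlap, and it was called lower with the GC content offset (-0.49, adjusted p = 0.00904) and in the 6 libraries alone (-0.38, adjusted p = 0.000122). The amino acid synthetase ASNS, a standard ATF4 readout, was at 47.8 ± 2.43 CPM at day 3 and 44.7 ± 3.50 CPM at day 2 (SD, n = 3 each; adjusted p = 0.69), and DDIT3 (CHOP) at 2.49 ± 0.489 and 3.03 ± 0.177 CPM (adjusted p = 0.499). SLC7A11, the cystine importer, did change, with 4.14, 2.48 and 3.92 CPM at day 3, against 30.3, 20.9 and 26.2 CPM at day 2 (-2.88 ± 0.38, adjusted p = 8.15e-07). SLC7A3, an importer of basic amino acids, was the member that rose, with 280, 308 and 323 CPM at day 3, against 137, 121 and 126 CPM at day 2 (1.25 ± 0.15, adjusted p = 1.08e-07). DDIT4, an inhibitor of mTORC1, fell by 1.20 and the leucine importer SLC7A5 by 0.57. In the 6 libraries alone 18 of the 46 fell and 4 rose, beside 4703 lower and 4474 higher of all 16643 genes. The change was more positive in PERK KO than in wild type for 16 of the 46 and more negative for 4. Among the 16, ASNS was at 28.4 CPM in wild type day 3 and 70.3 CPM in wild type day 2 (difference 1.40, adjusted p = 4.53e-06).

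ER chaperone and heat shock genes were counted beside the same 13.5% higher and 11.2% lower over all genes tested. Of 28 ER chaperones and unfolded protein response genes 1 rose (3.57%) and 3 fell (10.7%), with a median log2 fold change of -0.06. With the GC content offset 1 rose and 1 fell. Without any 1 library other than PERK KO day 3 replicate 1, 1 fell. HSPA5, the ER chaperone BiP that holds the stress sensors inactive, had 367, 373 and 376 CPM at day 3, against 382, 353 and 389 CPM at day 2 (-0.01 ± 0.18, adjusted p = 0.985). XBP1 was at 93.7 ± 7.28 CPM at day 3 and 76.0 ± 3.53 CPM at day 2 (SD, n = 3 each; adjusted p = 0.254). SEC24D, a coat protein of vesicles that leave the ER, had 67.5, 69.8 and 63.8 CPM at day 3, against 108, 102 and 111 CPM at day 2 (-0.67 ± 0.14, adjusted p = 0.000577). In the 6 libraries alone 2 of the 28 rose and 11 fell, beside 4474 higher and 4703 lower of all 16643 genes tested there. Of 15 heat shock genes 4 rose (26.7%) and 1 fell (6.67%). In the same 6 libraries alone 9 of the 15 rose and 3 fell. Without PERK KO day 2 replicate 1 or 3 or day 3 replicate 3, 2 rose. HSPA1A had 94.8, 110 and 111 CPM at day 3, against 35.2, 39.4 and 33.0 CPM at day 2 (1.55 ± 0.37, adjusted p = 0.00199), and the constitutive HSPA8 had 2280, 2330 and 2370 CPM, against 1380, 1280 and 1380 CPM (0.79 ± 0.16). HSPA1A has a near-identical copy, HSPA1B, so the counts of the pair are uncertain.

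Calls among genes of p53, the cell cycle and energy metabolism stand beside 13.5% higher and 11.2% lower over all genes tested. Replication genes had 8.33% higher and 8.33% lower (2 and 2 of 24), and respiratory chain genes 0% and 10.7% (0 and 3 of 28). The list of G1 cyclins and CDK inhibitors had 7.69% and 0% (1 and 0 of 13). In lists of this size a share rests on few genes, and no list was tested against the share over all genes. Of 21 targets of p53 and apoptosis genes 6 fell and 1 rose, and with the GC content offset 7 fell and 3 rose. PMAIP1 (NOXA), a BH3-only killer that stem cells keep high, had 233, 207 and 189 CPM at day 3, against 601, 514 and 623 CPM at day 2 (log2 fold change -1.47 ± 0.20, adjusted p = 1.85e-06), and the CDK inhibitor CDKN1A had 6.54, 6.08 and 8.63 CPM, against 10.6, 14.9 and 12.3 CPM (-0.83 ± 0.21, adjusted p = 0.00416). Of 24 replication genes 2 rose (MCM6 and RRM2) and 2 fell, with 0 lower without PERK KO day 2 replicate 1 or 3 or day 3 replicate 2 or 3, and of 22 mitotic genes 7 rose and 3 fell; the kinase PLK1 had 168, 184 and 194 CPM at day 3, against 89.4, 97.9 and 97.9 CPM at day 2 (0.94 ± 0.19, adjusted p = 0.000385). With 1 library left out between 3 and 6 mitotic genes rose and between 1 and 3 fell. The CDK inhibitor CDKN1C rose by 1.34. Of 27 glycolytic and hypoxia genes 6 rose and 4 fell. With the GC content offset 5 rose and 6 fell. In the 6 libraries alone 8 rose and 12 fell, beside 4474 higher and 4703 lower of all 16643 genes tested there. PDK1, the kinase that shuts pyruvate out of mitochondria, had 77.3, 72.5 and 65.9 CPM at day 3, against 420, 438 and 515 CPM at day 2 (-2.67 ± 0.16, adjusted p = 2.04e-13). The mitophagy receptor BNIP3 had 78.2, 79.9 and 76.5 CPM, against 192, 201 and 238 CPM (-1.43 ± 0.14). Glycolytic PFKP and ENO2 rose by 1.31 and 1.11, as did the HIF prolyl hydroxylase EGLN3 by 1.29. PDK1 also fell in wild type, to 89.9 CPM at day 3 against 370 CPM at day 2, by less than in PERK KO (difference -0.63, adjusted p = 0.0271). Of 28 respiratory chain genes 3 fell and 0 rose, 1 fell without PERK KO day 2 replicate 2 or 3 or day 3 replicate 2 or 3, and 0 were called with the GC content offset. Among 8 genes of DNA methylation and demethylation 1 rose and 1 fell. The member that rose was DNMT3L (4.25 ± 0.75, adjusted p = 0.000174), which stayed at or below 0.887 CPM. DNMT3B, which also rose, was counted with the pluripotency genes.

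Among matrix and adhesion genes more were lower than higher, with many not called. Of 16 fibroblast and matrix genes 5 fell and 1 rose, with 3 lower without PERK KO day 3 replicate 3. Of 15 genes of the epithelial-mesenchymal transition 7 fell and 2 rose, and with the GC content offset 7 fell and 4 rose. The collagen COL5A2 had 11.3, 8.25 and 7.85 CPM at day 3, against 59.1, 71.8 and 65.5 CPM at day 2 (log2 fold change -2.84 ± 0.22, adjusted p = 4.7e-11), and tenascin, TNC, had 13.6, 11.5 and 8.58 CPM, against 37.8, 45.3 and 47.7 CPM (-1.95 ± 0.26). ZEB2, a repressor of E-cadherin, fell by 2.50, and the cadherin CDH11 by 1.54. COL1A1 was the matrix gene that rose, with 80.0, 85.8 and 95.5 CPM at day 3, against 27.7, 29.2 and 25.1 CPM at day 2 (1.67 ± 0.21, adjusted p = 4.99e-07). The mesenchymal filament VIM had 190, 220 and 218 CPM at day 3, against 70.4, 65.9 and 69.7 CPM at day 2 (1.61 ± 0.15, adjusted p = 7.06e-10). In wild type VIM was at 3780 CPM at day 3 and 456 CPM at day 2 (difference -1.45, adjusted p = 1.58e-06), and COL5A2 at 399 and 275 CPM (difference -3.38, adjusted p = 3.92e-10).

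Retinoic acid genes moved in both directions, with 5 of 15 measured higher and 5 lower. The synthesis enzyme ALDH1A3 rose by 1.47 and the retinal reductase DHRS3, which holds the signal down, had 20.1, 23.3 and 22.6 CPM at day 3, against 7.40, 4.77 and 5.92 CPM at day 2 (log2 fold change 1.87 ± 0.28, adjusted p = 8.29e-06). CYP26A1, which degrades retinoic acid, had 65.6, 55.7 and 57.4 CPM at day 3, against 99.9, 123 and 102 CPM at day 2; its call (-0.86 ± 0.31, adjusted p = 0.0425) was lost without any 1 of the 6 libraries (adjusted p up to 0.13).

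Endoderm, endothelial and blood markers were counted as lists of other cell types. Of 17 endoderm and liver genes 5 rose and 3 fell, with 3 higher without PERK KO day 2 replicate 2 or day 3 replicate 1 and 2 higher without day 2 replicate 3; SOX17 had 13.7, 10.5 and 10.9 CPM at day 3, against 20.7, 30.1 and 18.3 CPM at day 2 (log2 fold change -0.97 ± 0.23, adjusted p = 0.00185). The endothelial marker PECAM1 was at or below 0.282 CPM in each of the 6 libraries and not called (adjusted p = 0.866). Of 19 endothelial and blood genes 5 rose and 2 fell (1 fell without any 1 library other than PERK KO day 2 replicate 2), among them TAL1, a blood and endothelial factor that also acts in neurons, with 7.20, 7.32 and 8.86 CPM at day 3, against 1.04, 0.858 and 1.41 CPM at day 2 (2.80 ± 0.33, adjusted p = 1.5e-07). The summed level of the endothelial and blood list was 48.7 to 50.6 CPM at day 3, against 24.4 to 28.5 CPM at day 2. Their part in the other results was not tested.

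The genes apart at days 3 and 5 included 3 on the long arm of chromosome 8 that had 0 counts at day 3: ZFP41, the sialyltransferase gene ST3GAL1 and the stress-responsive gene NDRG1. At day 2 they had 427, 240 and 125 counts. Against a floor of 3 counts over the group they were at least 151-fold, 85.1-fold and 44.3-fold lower at day 3. In wild type the same genes were at 16.2, 13.8 and 23.2 CPM at day 3 and 15.9, 7.57 and 11.6 CPM at day 2. At PERK KO day 10 they were again at 8.08, 5.08 and 35.5 CPM. The other protein-coding genes below were the lysophosphatidic acid receptor gene LPAR6 (0.17 CPM at day 3 and 2.86 CPM at day 2) and DUSP6. Above, FAM20A, a secretory pathway pseudokinase, had a mean of 236 CPM at day 3 and 29.2 CPM at day 2, and the membrane protease MMP24 had 187 and 19.9 CPM. Both genes were also higher at day 3 in wild type, FAM20A at 109 CPM against 14.4 CPM at day 2. For MMP24 the wild-type means were 12.6 and 0.728 CPM. ZNF560 had 17.6 CPM at day 3, 14.2 CPM at day 5 and between 0.0606 and 0.327 CPM at the other PERK KO days. HOXB13 had 125 counts at PERK KO day 3 and 0 at day 2, and CSAG1 had 74 and 0.

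Set against wild type, the change from day 2 to day 3 differed in 5736 genes (29%), with a more positive change in PERK KO for 2964 (15.0%) and a more negative one for 2772 (14.0%). Across all genes the changes in the 2 genotypes correlated at 0.15 (Pearson) and 0.03 (Spearman), a description over genes that share libraries and are not independent. Without wild type day 2 replicate 3 the count was 4836, and leaving out a wild type day 3 library gave 4487 to 6748. Several of the largest differences were in genes whose wild-type level moved further than the PERK KO level. INHBB, a subunit of activins and inhibins, was at 0.478 CPM in wild type day 3 and 32.1 CPM in wild type day 2, and in PERK KO at 1.20 and 0.0727 CPM. LZTS1, a leucine zipper gene that slows the cell cycle, had 20.5 CPM in PERK KO day 3 and 35.1 CPM in PERK KO day 2, against 14.6 and 1410 CPM at the same days in wild type. On the other side, the heart factors TBX2 and MYOCD and the myosin chaperone UNC45B stayed at or below 0.431 CPM on average in PERK KO at both days. In wild type they were at 44.5, 59.4 and 17.6 CPM at day 3 and at 0.0173, 0.291 and 0 CPM at day 2. The call of the difference for TBX2 was lost without PERK KO day 2 replicate 2 (adjusted p = 0.119) or replicate 3 (adjusted p = 0.121).

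**Figure D5:**
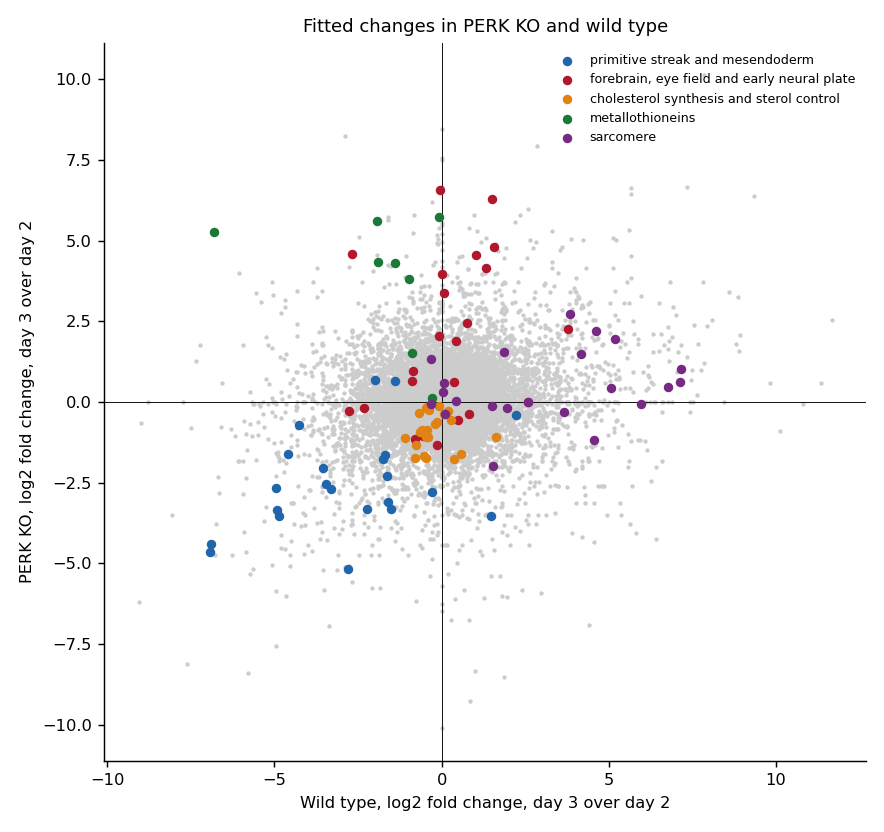
Fitted log2 fold change of day 3 over day 2 in wild type (horizontal axis) and PERK KO (vertical axis) for the 19772 genes tested (grey), with 5 lists in colour; fitted values of genes without counts in a group depend on the prior count. Most streak genes lie below 0 on both axes, the metallothioneins lie above 0 on the PERK KO axis and below 0 on the wild-type axis, and most sarcomere genes lie to the right of 0.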

How the data were processed

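Polyadenylated RNA of 36 libraries (2 genotypes at 6 days, 3 replicates per group) was sequenced as paired reads, per the labels' protocols. The deposited values are RSEM expected counts per gene; the submitters' processing notes name CASAVA, FastQC, STAR and RSEM, with no versions, and the build GRCh38. Whether counting used strand is not given in the sources used here. Between 6.53% and 9.43% of values per library were fractional, and all were rounded to whole counts. All 58721 gene IDs matched GENCODE 29, and 0 columns mapped to no sample.

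Genes were filtered with filterByExpr, libraries scaled by TMM, and 1 mean per group fitted over the 12 groups with edgeR 4.0.16 (glmQLFit, glmQLFTest; R 4.3.3), which left 24 residual degrees of freedom and a biological coefficient of variation of 18.69%. The contrasts were PERK KO day 3 minus day 2, and that change minus the wild-type change. P-values were adjusted by Benjamini-Hochberg over all 19772 genes tested, with a threshold of 0.05. SE is the absolute log2 fold change over the square root of F. CPM is the count relative to the TMM-scaled library size. The deposited sample files also hold TPM values, made by the authors with RSEM, which were read but are not printed, and effective lengths, which gave the length offset. The script was tested on simulated data. Where a group had 0 counts its bound was set from 3 counts in that group. Ratios of low counts carry an exact 95% interval. Both cover counting error only. Alternatives were DESeq2 1.42.0, other filters and scalings, a transcript length offset, smaller fits, a replicate block and each library left out; the offset for GC content of the longest transcript, and a fit that dropped the libraries apart from their groups (wild type day 2 replicate 3 and PERK KO day 0 replicate 2), were chosen after seeing the data.

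The members and the 36 lists were chosen with earlier results of these data known, and lists were described by counts and medians, with no list test. Named genes were EIF2AK3, the 12 called protein-coding genes of largest change in each direction with at least 10 CPM in the higher group and no overlap, skipping families that share reads (metallothioneins, HSPA1 genes) and genes named by a clone, the 5 members of smallest p and the defining members of each list, and the 8 largest differences between genotypes in each direction. Other list members, and the genes apart at days 3 and 5, were named after their values were seen.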

Additional observations from a re-analysis of the deposited data

Results flagged for a closer look

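The change from day 2 to day 3 differed between PERK KO and wild type in 5736 of 19772 genes by edgeR's test of the difference itself. Values below are the PERK KO change minus the wild-type change on the log2 scale, and no explanation was weighed. The difference was 10.05 for INHBB, 7.32 for ZNF560, 7.26 for DCHS2 and 6.62 for ZIC1. It was 6.03 for KCNK17, 5.83 for DRC7, 5.83 for LZTS1 and 5.72 for LOX. In the other direction it was -10.88 for TBX2, -10.76 for UNC45B, -10.13 for ZFP41 and -10.12 for ST3GAL1. It was -9.33 for NDRG1, -8.69 for GBP4, -7.75 for VWA5B1 and -7.44 for MYOCD.

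These fall into genes that moved in PERK KO and genes that moved in wild type. ZNF560 was at 17.6 CPM in PERK KO day 3 and 0.327 CPM in PERK KO day 2, against 0.173 and 0.523 CPM at the same days in wild type. KCNK17, a potassium channel gene, was at 1.28 and 0.517 CPM at PERK KO days 3 and 2, against 2.37 and 62.0 CPM in wild type. LOX, which crosslinks collagen, was at 0.558 and 0.382 CPM at PERK KO days 3 and 2, against 2.62 and 94.0 CPM in wild type. ZFP41, ST3GAL1 and NDRG1 had 0 counts at PERK KO day 3, and UNC45B had 0 at wild type day 2, so their fitted differences depend on the prior count and are no bound. DCHS2, DRC7, UNC45B, TBX2, GBP4, MYOCD and ZFP41 share exon sequence with another annotated gene.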

How the results depend on the processing

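Of the counts of called genes under each alternative, 104 stayed within 1.5 times the main count and 13 did not. In the 6 libraries compared alone 9177 genes were called (4474 higher, 4703 lower; 16643 tested). Replicate numbers did not pair the PERK KO samples (correlations of deviations 0.053, -0.018 and 0.025), and not every sample correlated best with its own number. Same-numbered wild-type samples, which enter the difference between genotypes, correlated at 0.477, 0.036 and 0.677. Wild type day 3 replicate 1 correlated with day 2 replicate 2 at 0.53 and with day 2 replicate 3 at -0.68. A replicate block in the libraries compared gave 9543 calls (4622 higher, 4921 lower), and 9050 for the difference between genotypes (4481 positive, 4569 negative). Genes called lower were 3344 with the 18 PERK KO libraries and 3604 in the fit that dropped wild type day 2 replicate 3 and PERK KO day 0 replicate 2, chosen after seeing the data. With 1 library left out, 3349 to 4272 genes were called, 1921 to 2390 higher and 1347 to 1882 lower, and 4487 to 6748 for the difference (2387 to 3412 positive, 2100 to 3336 negative). DESeq2 called 5328 and the length offset 3870. The cause of these shifts was not tested. Without a filter more genes were lower (2528) than higher (2193), against 2209 and 2674 as reported.

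Only genes that were not called changed sign. GATA4 was -0.18 with the GC content offset, -0.02 under the block, -0.0 in the smaller fits and -0.18 to 0.17 without a library. HSPA5 was 0.07 with the GC content offset and -0.05 to 0.02 without a library. MYOCD was -1.12 with the length offset and -0.23 to 0.42 without a library, the TBX2 log2 fold change was -2.61 to 0.49, and PECAM1 was -0.59 to 0.41, the last without PERK KO day 2 replicate 3. The difference for TBX2 lost its call in 2 fits. With the length offset CDX2, AXIN2, HSD17B7, ESRRB, CYP26A1, EPCAM, RFNG and PAX6 lost their day 3 against day 2 calls (adjusted p 0.0503 to 0.357). Counts of list members stayed within 1.5 times in 2456 cases and moved in 352. Genes under about 1 CPM rest on few counts.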
